A study of Mus musculus with 6 samples.

Results

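The heat shock proteins and their co-chaperones were followed in red blood cell precursors of mouse embryos that lacked STAT5 and of wild type embryos. The set was listed by name and held 51 genes of the HSP70, HSP110, HSP90, HSP60 and small heat shock protein families, the heat shock factors, the BAG proteins, the J proteins and the co-chaperones of HSP90 and HSP70. A gene was measured by a probe set, a group of short probes for 1 transcript, that the array's annotation pairs with that gene alone. Where a gene had several, the one with the highest mean log2 signal over all arrays was used. This gave 48 of the 51 genes among 18193 genes in all. Hsp90ab1, Hsf1 and Ptges3 were not analysed here.

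Chaperones of the HSP70 family bind unfolded stretches of proteins in cycles of ATP use. J proteins deliver clients and start ATP hydrolysis, and BAG and HSP110 proteins release the nucleotide. HSP90 finishes and holds signalling proteins with the help of its own co-chaperones, and the chaperonin HSP60 folds proteins inside mitochondria. Many of these genes are switched on together by heat shock factor when proteins unfold, while others are made at all times. In maturing red cells HSP70 is known to shield the transcription factor GATA1 from caspase-3, and the cells fold very large amounts of globin.

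The samples were pools of fetal liver cells carrying Ter119, a surface antigen of maturing red cell precursors, taken at embryonic day 14.5. Each of the 3 wild type and 3 STAT5 knockout pools combined 3 to 5 embryos of 1 genotype, and each pool was hybridised to 1 Affymetrix array. The labels give no treatment, and they leave strain, sex and the deleted allele unstated. The question of the design is how erythroid transcripts differ when STAT5, which the erythropoietin receptor activates, is missing. Values are linear intensities, called signals. A difference is the mean log2 signal of the knockout pools less that of the wild type pools. It is given with its standard error (SE) from limma with a trend of the variance on the mean, unless another fit is named, and n = 3 pools per genotype throughout.

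With 4 probe sets for Stat5a and Stat5b, each knockout array read below each wild type array (adjusted p between 0.0899 and 0.235, limma). At 3 of them every knockout signal lay under the control level defined below. The other, for Stat5b, differed by -1.29. It gave 204.9, 333.6 and 159.9 in knockout pools 1, 2 and 3, the last also under that level. Whether these probe sets lie in the deleted part of either gene was not tested, and one outside it would check nothing. The arrays' median signals lay between 175.6 and 215.8. A signal of 162.5, under which 95% of the readings of 27 bacterial control probe sets fell, is called the control level. It was above 42.4% to 48% of each array's probe sets. All 7 measured erythroid markers, among them the heme synthesis gene Alas2 and the anion exchanger gene Slc4a1, lay above that level in both genotypes. Their summed signal was between 200588 and 212484 in wild type and between 162776 and 210470 in knockout pools. In a bulk sample, fewer cells of a type and less RNA per cell cannot be told apart. The median difference of all genes was -0.0846, against which the differences below are to be read.

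In knockout pools, 1 of the 48 chaperone genes was called higher and 1 lower, and most of the rest lay close to their wild type level. Hspa1a, the gene of an inducible HSP70, rose by 2.28, and Dnaja4, the gene of a J protein, fell by 1.26. Those were the 2 members with an adjusted p under 0.05 by limma with the mean-variance trend, which called 80 genes, or 0.440% of all. Without the trend limma called 8 genes, or 0.0440% of all, and 0 of the 48. At an unadjusted p under 0.05 the members numbered 8 with the trend and 6 without it, where all genes gave 11% and 8.9%. The methods' t-test after adjustment called 1 member, Dnaja4. Hspa1b, nearly identical to Hspa1a, differed by 2.16, with an adjusted p of 0.0632 by limma with the trend.

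The submitters' own criterion was an unadjusted p under 0.05 and over 1.5-fold. It was met by 3 members that were higher in knockout, Hspa1a, Hspa1b and Hspa4, where 1.97% of all genes met it in that direction. It was met by 2 that were lower, Dnajb2 and Dnaja4, where 2.84% of all genes did. All knockout arrays lay above all wild type arrays for 7 members, Hspa1a, Hspa1b, Hspa2, Hspa4, Dnaja1, Dnajb1 and Dnajb4, against 7.02% of all genes. All lay below for 4 members, Dnaja4, Dnajb2, Bag1 and Bag3, against 9.85% of all genes. Hspa1a and Hspa1b are nearly identical copies whose signals cannot be told apart. They are counted separately here and in the counts below.

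The median difference of the 48 was 0.0182, with 25 above 0 and 23 below. After quantile normalization it was 0.0108 and after median centring 0.131, where all genes gave -0.0359 and 0.0283. A difference smaller than 0.3 in either direction was seen in 33 members, or 68.8%, against 51% of all genes. These shares were not matched for signal, and 42.4% to 48% of each array's probe sets read under the control level. Scaling turned the sign of 11 members, all with differences of at most 0.11 in size. Only Cryab, a small heat shock protein gene best known from lens and muscle, had both group means under the control level and is given no fold. The plot of all 48 differences shows these few genes standing out to the right and left of a narrow column.

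**Figure D1:**
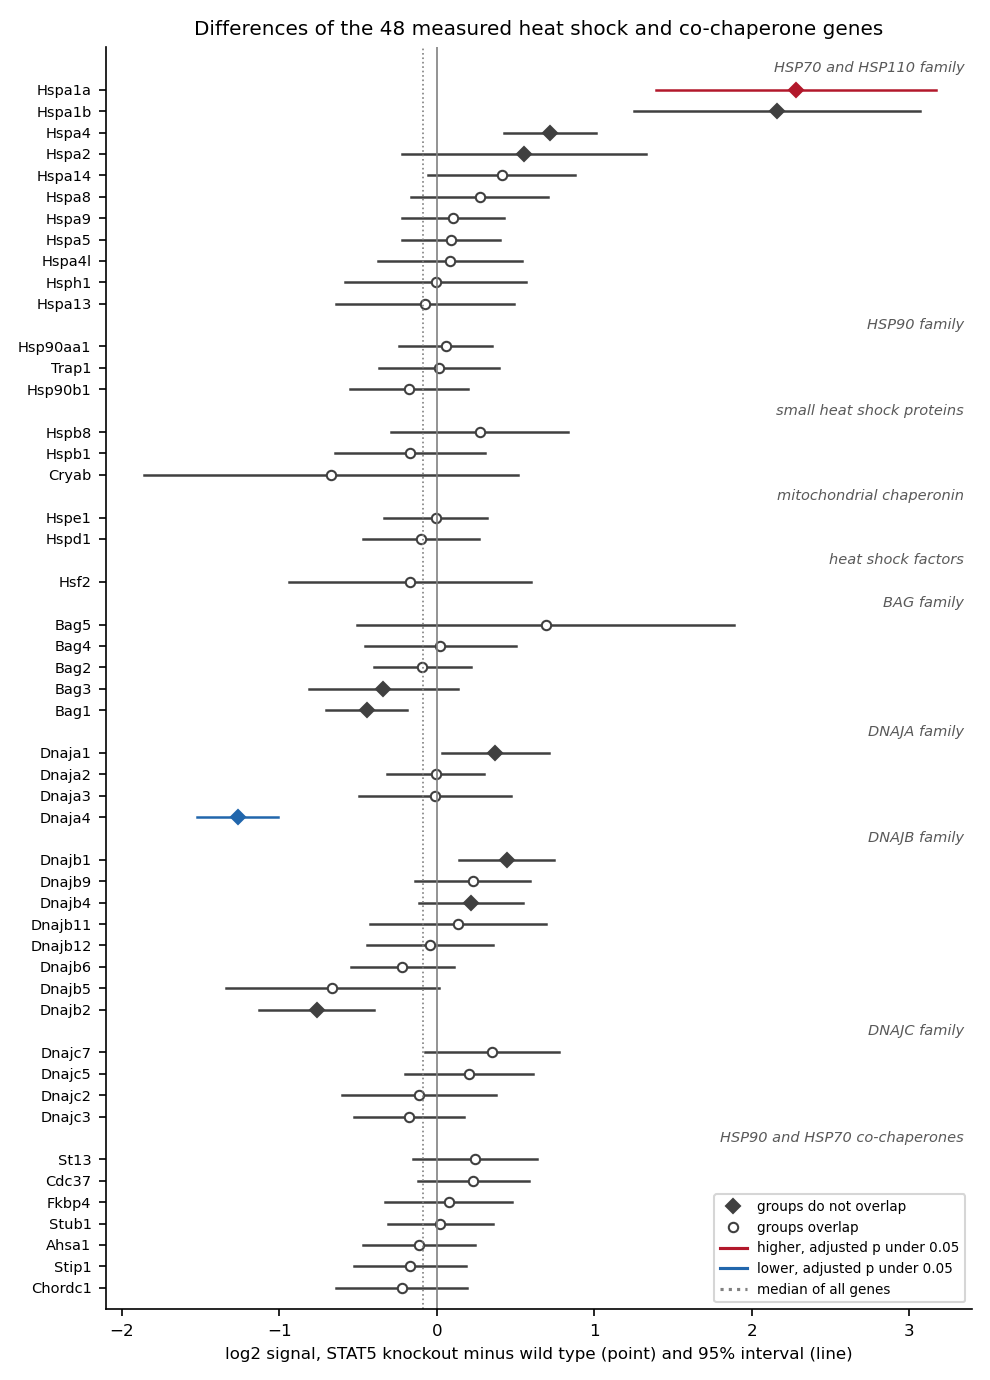
Difference in log2 signal, STAT5 knockout minus wild type, of each of the 48 measured genes by family, with the 95% interval of limma with the trend; diamonds mark genes whose 3 knockout and 3 wild type arrays do not overlap. Hspa1a at 2.28 (red) and Dnaja4 at -1.26 (blue) passed an adjusted p of 0.05, and the dotted line is the median of all genes at -0.0846.

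The inducible HSP70 genes were the members furthest above wild type. Hspa1a gave signals of 312, 215 and 353 in wild type pools 1, 2 and 3. In knockout pools 1, 2 and 3 it gave 842, 1134 and 2841. Every knockout pool thus lay above every wild type pool, and the third knockout pool lay far above the other two. The difference was 2.28 (SE 0.40, 95% interval 1.39 to 3.17), or 4.86-fold, with an adjusted p of 0.0488 with the trend and 0.355 without it (limma). The call was lost whichever 1 of the 6 pools was left out, with adjusted p between 0.0674 and 0.156 and differences between 1.77, without knockout pool 3, and 2.64, without knockout pool 1.

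Hspa1b is a neighbouring copy of the same gene and encodes nearly the same protein. Its signals were 734, 626 and 1091 in wild type and 2161, 2706 and 7610.2 in knockout pools. As with Hspa1a, the groups did not overlap, wild type pool 2 was lowest and knockout pool 3 was highest. The difference was 2.16 (SE 0.407), with an adjusted p of 0.0632 with the trend and 0.402 without it, so Hspa1b did not pass. Its other probe sets differed by 2.31 and 2.41. Because the copies are nearly identical, probes for one may bind the other's transcript, and which copy the signals come from cannot be told apart here.

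The likeness of both copies extends into their promoters, which are shown with those of Dnajb1 and Hspa5, best known members that respond to heat shock and to stress of the endoplasmic reticulum. Sequences are the 250 bases before each annotated start, from RefSeq on the build GRCm38.p6, written 5′ to 3′ on the gene's strand. Capitals mark a heat shock element, here the letters GAANNTTC or TTCNNGAA, where N is any base. Each of these forms reads the same on both strands, and where they lie end to end they share letters.
Hspa1a (chr17:34972157-34972406, minus strand): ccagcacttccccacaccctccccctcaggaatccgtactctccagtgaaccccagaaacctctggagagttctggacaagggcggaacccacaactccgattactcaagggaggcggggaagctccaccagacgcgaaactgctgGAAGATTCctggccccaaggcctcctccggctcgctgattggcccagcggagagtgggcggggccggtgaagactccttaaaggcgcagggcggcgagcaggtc
Hspa1b (chr17:34959239-34959488, minus strand): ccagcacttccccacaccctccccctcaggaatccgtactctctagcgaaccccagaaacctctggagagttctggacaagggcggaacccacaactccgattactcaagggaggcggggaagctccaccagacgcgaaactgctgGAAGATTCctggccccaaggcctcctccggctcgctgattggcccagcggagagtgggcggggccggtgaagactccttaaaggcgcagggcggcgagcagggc
Dnajb1 (chr8:83607925-83608174, plus strand): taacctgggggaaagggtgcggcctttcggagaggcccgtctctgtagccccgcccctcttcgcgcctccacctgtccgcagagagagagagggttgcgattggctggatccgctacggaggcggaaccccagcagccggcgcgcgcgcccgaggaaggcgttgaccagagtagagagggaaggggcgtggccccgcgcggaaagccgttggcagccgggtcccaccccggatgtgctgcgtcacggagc
Hspa5 (chr2:34771840-34772089, plus strand): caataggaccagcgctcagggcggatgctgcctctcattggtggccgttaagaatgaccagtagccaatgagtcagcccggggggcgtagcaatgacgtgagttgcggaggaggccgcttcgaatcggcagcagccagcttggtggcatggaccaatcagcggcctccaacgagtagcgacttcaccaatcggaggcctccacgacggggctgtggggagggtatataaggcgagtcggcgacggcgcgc
The windows of Hspa1a and Hspa1b held the same base at 247 of 250 positions (98.8%), with a shared run of 201 bases. Both carry the element GAAGATTC from 104 to 97 bases before the start, and both have a CCAAT box. The first window of Dnajb1 and that of Hspa5 hold no heat shock element in these letters, and the window of Hspa5 holds 4 CCAAT boxes. For Hspa8 no window was analysed here.

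After the inducible pair, Hspa4 differed most among the HSP70 relatives. It encodes an HSP110 type protein that releases the nucleotide from HSP70. Its signals were 1316, 1272 and 1379 in wild type and 2191, 2024 and 2315 in knockout pools. Each group was tight and the groups were far apart. The difference was 0.72 (SE 0.13, 95% interval 0.43 to 1.01), with an adjusted p of 0.0542 with the trend and 0.389 without it, just outside the threshold. Its other 3 probe sets were dimmer and differed by 0.74, 0.06 and 1.30, with overlapping groups, the last under the control level in both genotypes. The first of them read under that level in wild type pools 1 and 2, at 69.5 and 87.3. The relatives of Hspa4 among the exchange factors, Hsph1 and Hspa4l, differed by -0.00661 (SE 0.257) and 0.08 (SE 0.206). The contrast with Hspa4 was not tested.

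No constitutive HSP70 gene passed the test. Hspa8, the main cytosolic HSP70 of unstressed cells, gave 16124, 9555 and 14559 in wild type and 16025, 14743 and 16739 in knockout pools. The groups overlapped, with wild type pool 2 alone low. Its difference was 0.27 (95% interval -0.16 to 0.71), and 0.0457 without wild type pool 2, and its other 3 probe sets gave 0.13, 0.18 and 0.17. Hspa5, which encodes the HSP70 of the endoplasmic reticulum, differed by 0.09 (95% interval -0.22 to 0.40). Hspa9, the HSP70 of mitochondria, which takes part in making iron-sulfur clusters, differed by 0.10 (95% interval -0.22 to 0.43).

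The other 3 members of the family also stayed short of the test. Hspa14, a partner of the ribosome, differed by 0.41 (SE 0.208) with overlapping groups. Hspa2, known for its role in sperm, differed by 0.56 (SE 0.347), and by 0.17 without wild type pool 3, whose signal of 148 was under the control level. Hspa13, an HSP70 of microsomes, differed by -0.07. Over the 11 HSP70 and HSP110 genes the median was 0.27, with 9 above 0. The test called 1 of them, where it called 0.440% of all genes, and all knockout pools were higher for 4, against 7.02% of all genes. Those 4 hold both Hspa1a and Hspa1b, which are not independent readings.

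**Figure D2:**
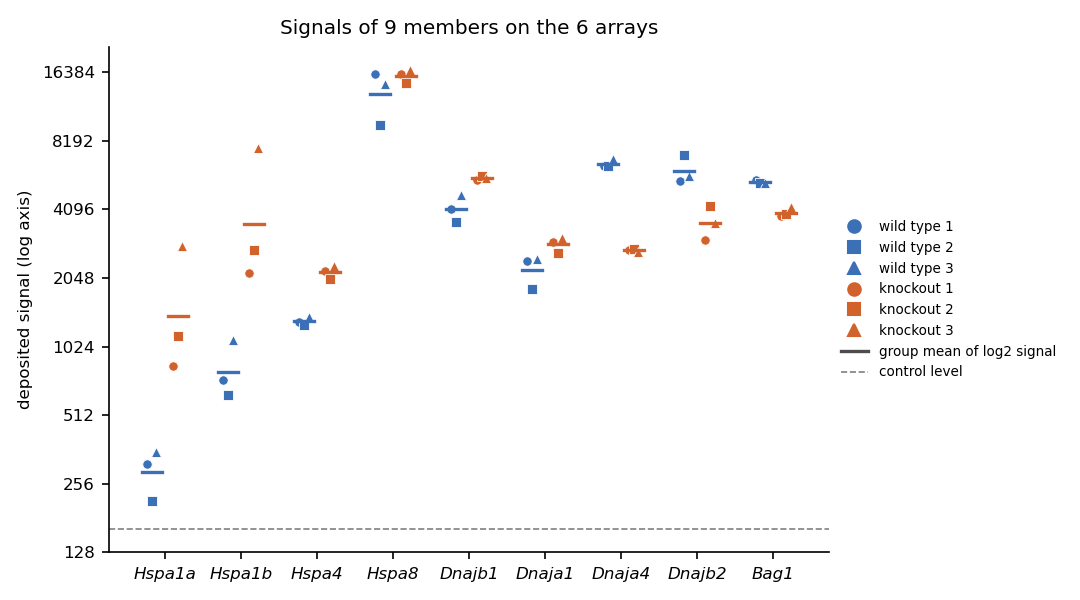
Deposited signal of 9 members on a log axis, with 1 point per pool (circles, squares and triangles for pools 1, 2 and 3, blue for wild type and orange for STAT5 knockout) and bars at the group means of log2 signal. Hspa1a and Hspa1b spread widely among the knockout pools, up to 2841 and 7610.2 in pool 3, while the pools of Dnaja4, Hspa4 and Bag1 sit close together within each genotype; the dashed line is the control level of 162.5.

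No HSP90 gene passed the test. Hsp90aa1, the inducible cytosolic HSP90, gave 20194, 17668 and 18714 in wild type and 19636, 19564 and 19542 in knockout pools. The knockout pools fell inside the wild type range. The difference was 0.06 (95% interval -0.24 to 0.35), and its other probe sets above the control level gave 0.21, 0.31 and -0.41. Hsp90b1, the HSP90 of the endoplasmic reticulum, differed by -0.18 (SE 0.168), and Trap1, that of mitochondria, by 0.0129 (SE 0.17). The median of the 3 was 0.0129.

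Neither the mitochondrial chaperonin nor the small heat shock proteins passed. Hspd1, which encodes the barrel protein HSP60, gave 11695, 9819 and 8587 in wild type and 10960.4, 8073 and 9076 in knockout pools. The ranges overlapped over most of their length. The difference was -0.0988 (95% interval -0.47 to 0.27), and that of Hspe1, which encodes the lid protein HSP10, was -0.007 (95% interval -0.34 to 0.32). Hspb1, the gene of HSP27, which binds actin and unfolding proteins, differed by -0.17, and Hspb8, a partner of BAG3, by 0.27. Hsf2, the 1 heat shock factor gene measured, differed by -0.17 (SE 0.344), with wild type pool 2 at 428 above all other pools.

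Among the BAG genes, whose proteins release clients from HSP70, Bag1 and Bag3 were lower in every knockout pool without passing. Bag1, whose protein also binds the survival factor BCL2, gave 5493, 5367 and 5329 in wild type and 3819, 3911 and 4172 in knockout pools. The pools of each genotype lay close together with a clear gap. The difference was -0.45 (SE 0.115, 95% interval -0.70 to -0.19), with an adjusted p of 0.187 with the trend and 0.538 without it (limma).

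Bag3, which steers HSP70 clients to autophagy and is itself a heat shock gene, gave 592, 477 and 546 in wild type and 364, 472 and 444 in knockout pools. Knockout pool 2 lay just under wild type pool 2. The difference was -0.34 (SE 0.211, adjusted p = 0.595). Bag5 differed by 0.69, but this rested on wild type pool 2, at 97 against 516 and 415 in the other wild type pools, and was -0.0605 without it. Bag2 and Bag4 differed by -0.0903 and 0.0235. The median of the 5 was -0.0903.

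The 1 member called lower is a J protein. Dnaja4, a type A J protein that starts the ATP use of HSP70, gave 6369, 6352 and 6776 in wild type and 2722, 2754 and 2656 in knockout pools. The 3 pools of each genotype were nearly level and the groups were far apart. Dnaja4 fell by 1.26 (SE 0.114, 95% interval -1.52 to -1.01), or 2.4-fold, with an adjusted p of 0.0035 with the trend and 0.133 without it (limma). The call held whichever pool was left out, with differences between -1.28 and -1.23 and adjusted p between 0.0118 and 0.0353.

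All 3 probe sets of Dnaja4 fell. The second gave 2264, 2524 and 2712 in wild type and 1037, 1099.7 and 1200.1 in knockout pools. The third gave 4601, 4749.9 and 3268 against 1398, 1632 and 1773. Their differences were -1.17 and -1.38. In limma's fit over 45037 probe sets, which called 70 or 0.155% of them, these 3 were the members called, with adjusted p of 0.00893, 0.0176 and 0.0222. The plot of single probe sets sets them beside those of other members.

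**Figure D3:**
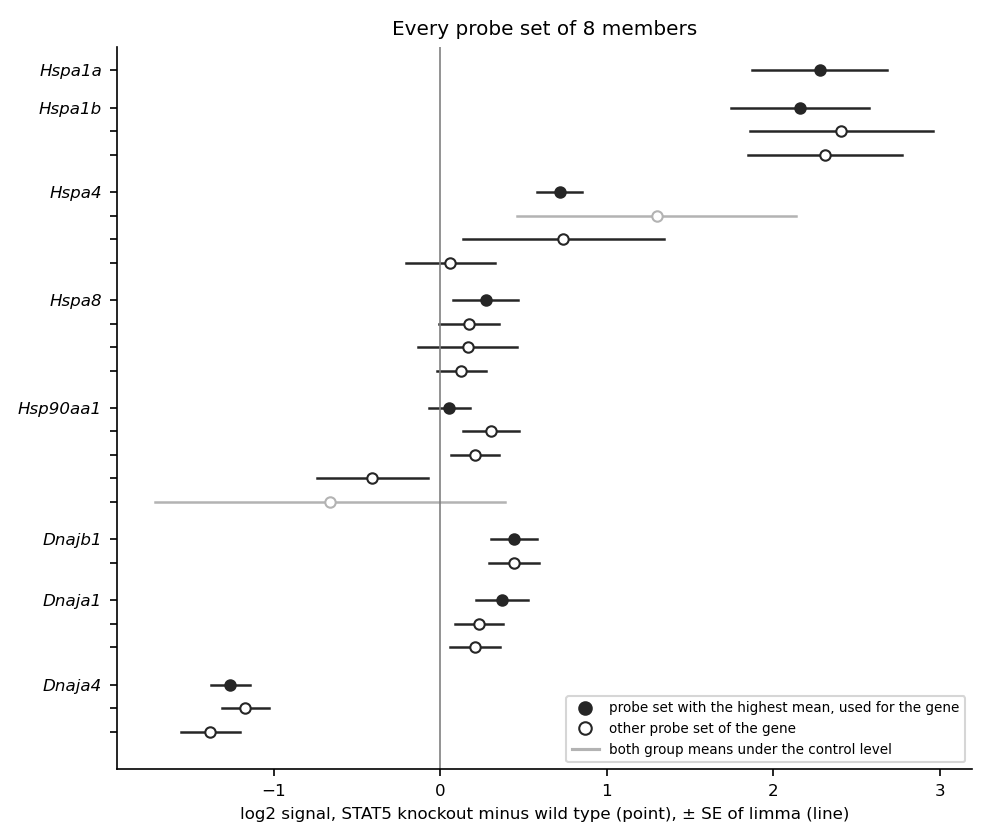
Difference in log2 signal, STAT5 knockout minus wild type, of every probe set of 8 members, with the SE of limma's fit over all probe sets as the line; filled points are the probe sets used for the gene and grey ones had both group means under the control level. The 3 probe sets of Dnaja4 lie between -1.38 and -1.17 and those of Hspa1a and Hspa1b between 2.16 and 2.41, while those of Hsp90aa1 fall on both sides of 0.

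Dnaja4 has 2 annotated starts. The window before the second, which lies after the first start and may be transcribed, holds 2 heat shock elements, in capitals below.
Dnaja4 (chr9:54699458-54699487, plus strand): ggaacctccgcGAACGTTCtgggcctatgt
Dnaja4 (chr9:54699496-54699525, plus strand): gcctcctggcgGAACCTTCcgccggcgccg
They begin 90 and 52 bases before that start. The window before the first start holds none in these letters. The letters TTCNNNGAA, which STAT proteins can bind, lie in neither window of Dnaja4, and among the 39 members with a window they lie in that of Dnajc7 alone. Windows of 8.13% of all genes hold them.

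Other type A genes differed less. Dnaja1, a main cytosolic J protein, gave 2420.2, 1828 and 2478 in wild type and 2956, 2623 and 3069.7 in knockout pools. The groups did not overlap, though knockout pool 2 lay close above wild type pool 3. The difference was 0.37 (SE 0.153, adjusted p = 0.412), and its other 2 probe sets also lay above 0. Dnaja2 and the mitochondrial Dnaja3 differed by -0.00687 (95% interval -0.32 to 0.30) and -0.00849 (95% interval -0.49 to 0.47). The other, dimmer probe sets of Dnaja2 gave 0.31, 0.80 and 0.304, the last without overlap.

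In the type B family, values ran in both directions. Dnajb1, the HSP40 that heat induces along with HSP70, gave 4097, 3605 and 4751 in wild type and 5489, 5752 and 5609 in knockout pools. Every knockout pool was above every wild type pool, and the knockout pools were the more uniform. The difference was 0.45 (SE 0.135, 95% interval 0.14 to 0.75), with an adjusted p of 0.26 with the trend and 0.56 without it, and its second probe set gave 0.44. Dnajb4 differed by 0.22 with no overlap, and by 0.07 without knockout pool 2.

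Dnajb2, a J protein that binds ubiquitin and passes clients to the proteasome, lay on the other side. It gave 5449, 7069.5 and 5749 in wild type and 2995, 4241 and 3576 in knockout pools. The highest knockout pool stayed below the lowest wild type pool. The difference was -0.76 (SE 0.163, 95% interval -1.13 to -0.40), with an adjusted p of 0.101 with the trend and 0.474 without it. Dnajb5 differed by -0.66 (SE 0.303) with overlapping groups. A dimmer probe set of it did not overlap, with 252, 276 and 273 in wild type and 31.5, 181 and 166 in knockout pools. There, knockout pool 1 lay under the control level. Dnajb6, which keeps aggregating proteins apart, differed by -0.22 and Dnajb12, a J protein of the endoplasmic reticulum membrane, by -0.0449. The median over the 8 type B genes was 0.0441, with 4 on each side of 0.

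The J proteins of type C and the co-chaperones of HSP90 and HSP70 gave no call, also by the methods' t-test after adjustment. In either limma fit 0 of these 11 genes had an unadjusted p under 0.05, where all genes gave 11% and 8.9%. Dnajc7, which links HSP70 and HSP90, differed by 0.35 (SE 0.191) and Dnajc5, the cysteine string protein, by 0.20. Dnajc2, which works at the ribosome, differed by -0.12. Among co-chaperones St13 differed by 0.25 (SE 0.177) and Cdc37, which brings kinases to HSP90, by 0.23 (SE 0.157). Stip1, which joins HSP70 to HSP90, differed by -0.17 (SE 0.159), and Chordc1 by -0.22 (SE 0.186). Fkbp4, Stub1 and Ahsa1 differed by 0.08, 0.0236 and -0.11. Over the 7 co-chaperones measured the median was 0.0236.

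By place in the cell, the members of the endoplasmic reticulum and of mitochondria gave no call. The 6 members of the endoplasmic reticulum, Hspa5, Hspa13, Hsp90b1, Dnajb9, Dnajb11 and Dnajc3, had a median of 0.00867 and differences between -0.18 and 0.23. Their summed signal ran from 22029 to 24505 in wild type and from 20445 to 25693 in knockout pools, a wider range that took in the wild type one. The 5 mitochondrial members had a median of -0.007 and differences between -0.0988 and 0.10. At an unadjusted p under 0.05 limma gave 0 genes in both groups, with and without the trend, where all genes gave 11% and 8.9%.

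Of 17 members known as targets of heat shock factor, 16 were measured, and they lay on both sides of 0, 8 above and 8 below, with a median of 0.0249. Hspa1a was called higher and 0 were called lower. Dnaja4, which fell and has 2 heat shock elements in a window, was not on this list of targets. At an unadjusted p under 0.05 there were 4 with the trend, Hspa1a, Hspa1b, Dnajb1 and Dnaja1, and 2 without it, where all genes gave 11% and 8.9%. For these 4 all knockout pools were higher, against 7.02% of all genes, and for Bag3 all were lower, against 9.85%. Hsph1, Hspd1, Hspe1 and Hsp90aa1, which heat also induces, were within 0.10 of 0. Wild type pool 2 was the lowest wild type pool for 12 of the 16 targets (75%) and for 27 of all 48 members (56.2%), where it was lowest for 29.4% of all genes. Without that pool the difference was 2.07 for Hspa1a, 1.99 for Hspa1b, 0.35 for Dnajb1 and 0.23 for Dnaja1.

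Transcripts known to be induced while cells are handled, other than heat shock genes, were measured beside them. Of 20 measured, 14 lay above 0 with a median of 0.26, where 41.9% of all genes lay above 0. In either limma fit 0 were called. At an unadjusted p under 0.05 they numbered 4 with the trend and 2 without it, where all genes gave 11% and 8.9%. Ier2, an immediate early gene, gave 629.6, 779 and 997 in wild type and 1222, 2078 and 1938 in knockout pools. Fos, another, gave 526, 437 and 783 against 1012, 861 and 1675. For both the knockout pools were all higher, with differences of 1.11 (SE 0.238, adjusted p = 0.101) and 1.01 (SE 0.286, adjusted p = 0.225). Over the 20, all knockout pools were higher for 3, against 7.02% of all genes, and all were lower for 1, against 9.85%. Jun differed by -0.0617. Knockout pool 3, the highest for Hspa1a and Hspa1b, was also the highest for Fos, while knockout pool 2 was the highest for Ier2. The part of handling in the Hspa1a and Hspa1b values was not tested.

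**Figure D4:**
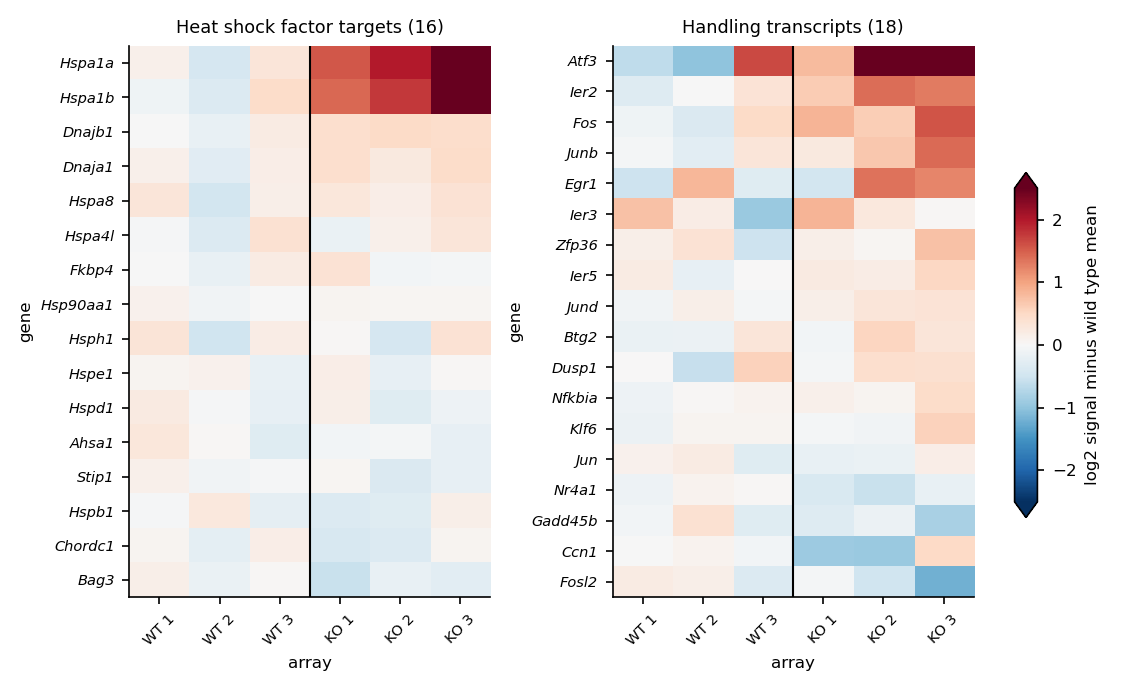
Colour maps of log2 signal minus the wild type mean, per pool, of the 16 measured heat shock factor targets (left) and of the 18 handling transcripts with a group mean above the control level (right), rows ordered by the knockout difference and colours running from -2.5 to 2.5. Hspa1a and Hspa1b are deep red in all knockout pools and darkest in pool 3, the other targets are pale, and Ier2 and Fos are red in the knockout pools. Atf3, in the top row on the right, had a wild type mean under the control level, and its groups overlap.

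The heat shock elements themselves were counted in the promoters of all members with a window. A window was found for 39 of the 48, and 9 had none. Either form of the element lay in those of 13 members (33.3%), against 14.5% of 27025 genes. The form GAANNTTC lay in those of 10 members and 7.73% of genes, and TTCNNGAA in those of 6 members and 8.11% of genes. A longer form, in which another GAA follows GAANNTTC after any 2 bases, holds both and lay in those of 3 members, Hspd1, Hspe1 and Dnajb6, and in 0.514% of genes. The stretches of 30 bases around the elements of several members are shown to set them beside their differences, again with the elements in capitals.
Hspd1 (chr1:55088053-55088082, minus strand): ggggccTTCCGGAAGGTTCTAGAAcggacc
Hspe1 (chr1:55088053-55088082, plus strand): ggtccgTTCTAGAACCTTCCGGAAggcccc
Dnajb6 (chr5:29735844-29735873, plus strand): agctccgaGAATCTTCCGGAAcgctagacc
Hsph1 (chr5:149636351-149636380, minus strand): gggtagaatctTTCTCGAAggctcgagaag
Dnaja1 (chr4:40722333-40722362, plus strand): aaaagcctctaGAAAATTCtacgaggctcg
Fkbp4 (chr6:128438789-128438818, minus strand): ccgcttctctaGAAAGTTCtccgctcccgc
Hspb1 (chr5:135887791-135887820, plus strand): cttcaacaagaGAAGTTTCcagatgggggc
Hspb1 (chr5:135887811-135887840, plus strand): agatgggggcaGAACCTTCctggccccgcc
Hspd1 and Hspe1 share 1 element of 18 bases between their starts, read here on opposite strands. It is the longest among the members, and both genes lay near 0. Members with an element had differences between -1.26 and 2.28 and a median of 0.0236, with 7 above 0 and 6 below. The 26 members whose windows held none had a median of -0.00768. A match to these letters does not show that a factor binds there, and a window without one says only that the letters are not in it.

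Other chaperones, listed by family rather than by how they moved, gave 0 calls in either limma fit and by the methods' t-test after adjustment. The 8 subunits of the cytosolic chaperonin TRiC had a median of 0.0538 and the 6 of prefoldin, which hands actin and tubulin to it, 0.12. Cct2 differed by 0.35 (SE 0.174) and Pfdn2 by 0.33 (SE 0.16), both without overlap, and Cct6a and Pfdn1 by 0.23 and 0.25 with overlap. A further 28 J proteins had a median of 0.0964. Dnajc8, a splicing protein, differed by 0.37 (SE 0.143), and Dnajc17 by 1.06 (SE 0.356) with overlapping groups. At an unadjusted p under 0.05 with the trend there were 0 genes of TRiC, 0 of prefoldin and 3 of these 28 J proteins. Of all genes, 11% had such a p.

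A further 16 partners of HSP90 and HSP70 had a median of -0.00255, with Fkbp8 at -0.43 (SE 0.133) without overlap and Unc45a at -0.97 (SE 0.379) with overlap. The 22 genes of folding and stress signalling in the endoplasmic reticulum had a median of -0.0917. Xbp1, the transcription factor of the unfolded protein response, gave 3869, 3814 and 3519 in wild type and 2344, 2373 and 2759.5 in knockout pools. The groups were well apart, with a difference of -0.59 (SE 0.127) and an adjusted p of 0.106. Ddit3, a stress factor downstream of that response, differed by 0.56 (SE 0.201, adjusted p = 0.342).

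The 12 genes of mitochondrial protein quality control had a median of 0.00717, with the protease gene Htra2 at 0.54 (SE 0.173) and Afg3l2 at 0.24 (SE 0.18). Eif2ak1, the heme-regulated kinase that HSP90 and HSC70 help to fold, differed by -0.23 (SE 0.144). Ahsp, the chaperone of alpha globin, was not analysed here. With the trend, an unadjusted p under 0.05 was seen for 3 of the 16 partners and 2 of the 22 endoplasmic reticulum genes. It was seen for 1 of the 12 genes of mitochondrial quality control, not for Eif2ak1, and for 11% of all genes.

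Markers of the other cells that a fetal liver sort could hold were measured in the same pools. All 17 hepatocyte markers measured were below 0, with a median of -0.73. Limma called 0 of them in either fit. Of the 17, 14 had an unadjusted p under 0.05 with the trend and 8 without it, where all genes gave 11% and 8.9%. Their summed signal was between 175491 and 305169 in wild type, highest in pool 2, and between 150820 and 161017 in knockout pools. Ahsg, a secreted liver protein, differed by -1.11 (SE 0.252) and the fibrinogen gene Fgg by -1.07 (SE 0.264). All of these markers had group means above the control level. The 10 endothelial markers had a median of -0.39, and both group means of Pecam1, Tek, Tie1 and Vwf lay under the control level. Their summed signal ran from 2964 to 5062 in wild type and from 2560.0 to 3075 in knockout pools. Lyve1 read above the control level in all wild type pools and under it in all knockout pools, so its difference is not given (adjusted p = 0.0712, limma), and Eng differed by -0.83.

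The 10 macrophage markers, 7 of them above 0, had a median of 0.28 and summed signals of 18278 to 28152 in wild type and 23868 to 34009 in knockout pools, highest in pool 3. Marco, a scavenger receptor, differed by 0.75 (SE 0.291) and Clec4f by -0.62. Of 5 megakaryocyte markers 4 lay below 0 with a median of -0.12. Ppbp differed by -1.94 (SE 0.743) and Gp9 by 0.58 (SE 0.256), both with overlapping groups. Ppbp gave 282.5, 616 and 3806 in wild type and 206, 283 and 202 in knockout pools, with wild type pool 3 far above the rest. The summed signals of the 5 were 3661 to 13456 in wild type and 3709 to 4953 in knockout pools. Limma called 0 endothelial, macrophage, megakaryocyte and erythroid markers. In that order, 3 of 10, 1 of 10, 2 of 5 and 2 of 7 had an unadjusted p under 0.05 with the trend. Of all genes, 11% had one. The 7 erythroid markers had a median of -0.16, with Epb42 at -0.39 (SE 0.15) and Tfrc at -0.38 (SE 0.159). Hepatocytes also make chaperones, and the part of these cells in the members' differences was not tested.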

How the data were processed

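RNA of 6 pools was hybridised to 1 array each, and the sample titles gave group and replicate number. The deposited table holds a linear intensity per probe set. RMA and Partek are named, without versions, in the submitters' processing notes. The deposited intensities were scaled array by array, by a method the labels do not state. Members, lists and tests were chosen with earlier results of these data known. Log2 of the intensity was tested with limma 3.58.1 (R 4.3.3), lmFit and eBayes with a mean-variance trend, Benjamini-Hochberg adjustment over 18193 genes and a threshold of 0.05, with the fit without the trend beside it. No filter or pseudocount was used. The number of arrays limits precision: with 3 against 3 an exact permutation test cannot go below 0.1. Probe sets with several gene symbols (932) or none (9160) were left out of the gene tests. Scripts were tested on simulated data. Values per pool are given for members past either limma fit, meeting the submitters' criterion or with large differences among the heat shock factor targets, and further members are given as contrast. From each other list the 2 genes with the smallest p were named, and any more (Alas2, Slc4a1, Jun, Atf3) were picked with values in view. Alternatives were the variance model, the methods' t-test, 2 scalings, a filter on dim probe sets, array weights, a replicate block, an added 32, other choices of probe set and leaving out each pool.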

Additional observations from a re-analysis of the deposited data

How the results depend on the processing

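The count of 2 called members moved with the processing, as did that of all genes, 80 as reported. It was 0 (8 of all genes) without the mean-variance trend. It was 1, Dnaja4, with robust estimation, by the methods' t-test with adjustment, and after quantile normalization or median centring. Dnaja4 alone was also called with 32 added, with a gene's probe sets averaged, and without those named _x_at, _s_at or _a_at (16591 genes left). Across these settings between 4 and 79 of the genes tested were called. The count was 4, with Hspa1b and Hspa4, with array weights (151 of all genes). It was also 4, of 47 members, without the dimmest 50% of probe sets (116 of the 11481 genes left). Without 1 pool it was 1 in each of the 6 fits, with 9 to 75 of all genes. Without the trend, Dnaja4 was called once the dimmest 50% were left out, a count of 1 among 20 of the 11481 genes left. The submitters' criterion was met by 6 members, with Dnajb5, when a gene's probe sets were averaged (924 of all genes). It was met by 4 of 42 members without those named _x_at, _s_at or _a_at (814 of the 16591 genes left). When 1 pool was left out it was met by 3 to 5 members, and by 3 without wild type pool 2. In those fits 723 to 1203 of all genes met it instead of 875. The groups then did not overlap for 13 to 18 members and for 4595 to 6205 of all genes, instead of 11 and 3070, as fewer pools overlap less often by construction. The median of the members was 0.131 after median centring and ran from -0.0482 to 0.0781 without 1 pool. All 9 members followed kept their direction, through 17 alternatives, or 16 for Dnajb2, whose single probe set 1 of them removes. An adjusted p under 0.05 was reached in 16 alternatives by Dnaja4, 3 by Hspa1a, 3 by Hspa1b and 2 by Hspa4.

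Deviations of same-numbered pools correlated at 0.023, 0.041 and 0.037, so the numbers give no sign of pairing. With a replicate block 3 members were called, Hspa1a, Hspa1b and Dnaja4 (adjusted p = 0.0334, 0.0244 and 0.0192, limma), among 75 of all genes. Without the trend the same block gave 0 members and 0 of all genes.

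Groups of 3 pools and signals near background limit what could be seen. Of the 124 probe sets of the members 107 had a group mean above the control level, and 17 of 36 genes with several probe sets had both directions among them. Nearly identical copies cannot be separated. The cause of the differences between settings was not tested.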
